A study of Mus musculus with 17 samples.

Results

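The comparison of streptozotocin-treated with control muscle on a standard diet covers 12 of the 17 arrays of the series, 5 labelled STZ,SD and 7 labelled Con,SD, with 1 mouse per array. The arrays were chosen by their titles alone, and no measured value entered that choice. All 12 mice were male, wildtype C57BL/6N animals aged 5-6 months. STZ,SD mice had received streptozotocin, a sugar-like toxin taken up by the insulin-producing beta cells of the pancreas, at 65 mg/kg into the abdomen on each of 5 days in a row, when they were 10 to 16 weeks old. Con,SD mice had been given citrate buffer, the solvent, in the same way. Both groups then ate the standard diet. The methods text of the study gives a lower dose and controls without injection, so the labels and that text differ. Blood glucose, insulin and body weight were not analysed here, and the sources used here do not name the muscle. The other 5 arrays, from streptozotocin mice on a bezafibrate diet (STZ,BEZ), entered only the estimate of the spread.

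Insulin acts on muscle fibres through its receptor, the receptor substrates and the kinase Akt. Akt moves glucose transporters to the cell surface, promotes protein synthesis and keeps the FoxO transcription factors out of the nucleus. When insulin is lost, FoxO factors enter the nucleus and switch on genes of protein breakdown, stress resistance and fat use, and muscle shifts from burning glucose to burning fatty acids.

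Values are log2 expression values, so a difference of 1 is a 2-fold change. Differences are STZ,SD minus Con,SD ± SE from limma, fitted over 19938 genes, and a gene was called when its Benjamini-Hochberg adjusted p was under 0.1. In total 5142 genes were called, 25.8% of those tested, of which 2776 were higher (13.9%) and 2366 lower (11.9%). The differences were mostly small, with a median size of 0.29. Those of at least 1.5-fold numbered 440 (2.21%), 182 higher (0.913%) and 258 lower (1.29%). For 970 genes every STZ,SD array lay above every Con,SD array (4.87%), for 684 every STZ,SD array lay below (3.43%), and together these were 8.30% of the genes tested. Counts of gene lists below are to be read against these shares. The shares varied with mean level, in 6 bins of 3323 genes each. In the dimmest bin 0.903% were called higher and 13.3% lower. In the brightest, from 8.70 upward, these were 22.8% and 25.3%. A list of bright genes can thus exceed the shares of all genes through its level alone.

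Levels of muscle fibre markers were 13.2 to 13.3 on all 12 arrays, and those of T cell, B cell, neutrophil and keratinocyte markers did not exceed 5.84. Con,SD array 1 stood apart, with a hepatocyte marker level of 11.8 (9.79 on the next array) and a testis marker level of 8.18 (5.83 on the next). The median correlation of that array with the other controls was 0.970, and of the other 11 arrays with their own group 0.989 to 0.993. Without it 5430 genes were called. STZ,SD arrays 2 and 3 had lower fibroblast marker levels (8.64 and 8.75) than the other 10 arrays (9.29 to 9.70). They were also lowest for tendon markers (7.57 and 7.73, others 7.95 to 8.64) and, narrowly, for macrophage (7.12 and 7.00, others 7.14 to 7.74) and T cell markers. For endothelial, smooth muscle, pericyte, Schwann cell and neutrophil markers these arrays were the highest. Without STZ,SD arrays 2 and 3, 2796 genes were called, 234 of them at 1.5-fold or more, in an alternative chosen after seeing the data. In tissue RNA, fewer cells of a type and less RNA per cell cannot be told apart.

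In the insulin receptor pathway itself more genes were higher than lower in STZ,SD. Of 20 measured genes for the receptor, its substrates and adaptors, 11 were called higher and 2 lower, with a median difference of 0.20 beside -0.01 over all genes tested. Irs1 and Irs2 encode the docking proteins that pass the signal from the receptor to phosphatidylinositol 3-kinase. On the Con,SD arrays Irs1 ran from 8.75 to 9.44 with a median of 8.98, and on STZ,SD arrays 1 to 5 it was 9.96, 9.79, 10.17, 9.89 and 10.30. The difference of 0.91 ± 0.13 was 1.89-fold (limma, adjusted p = 0.00012), and no STZ,SD array reached down to a control. Irs1 has 2 probe sets on the array, and their mean gave 0.45. Without STZ,SD arrays 2 and 3, 6 of the 20 genes were called higher.

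Irs2 ran from 7.56 to 7.86 (median 7.67) in Con,SD and was 8.12, 8.68, 8.39, 8.18 and 8.14 in STZ,SD. That was 1.52-fold higher (0.60 ± 0.10, limma adjusted p = 0.000489), again without overlap. The receptor gene Insr rose less, from 9.55 to 9.77 (median 9.65) in Con,SD to 9.85, 10.15, 10.28, 9.67 and 9.85 in STZ,SD (0.31 ± 0.09, adjusted p = 0.0175). Its call was lost without STZ,SD arrays 2 and 3 (0.15).

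The adaptors that restrain the receptor moved in opposite directions. Grb14, which binds the active receptor and blocks it, ran from 7.74 to 8.17 (median 7.98) in Con,SD and was 7.19, 6.51, 6.56, 7.62 and 7.02 in STZ,SD. It fell 2.03-fold (-1.02 ± 0.16, adjusted p = 0.000311), and every diabetic array lay below every control. Grb10, a related adaptor from an imprinted gene, rose by 0.60 ± 0.12, with 9.29 on STZ,SD array 1 against at most 8.33 in Con,SD.

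Downstream of the substrates, 13 of 30 measured genes of the PI3K, Akt and mTOR pathway were called higher and 3 lower, and 8 higher without STZ,SD arrays 2 and 3 or without Con,SD arrays 1, 3 and 4. Pik3ca, the catalytic subunit, rose by 0.33 ± 0.06 and Gsk3b, a kinase that Akt inhibits, by 0.40 ± 0.07, both without overlap between the groups. Akt1 rose by 0.47 ± 0.10 (9.68, 9.91, 9.84, 9.32 and 9.37 against 8.97 to 9.26). Akt2, the isoform most tied to glucose uptake, had 0.14 ± 0.06 (adjusted p = 0.101) and did not pass. Eif4ebp1, the repressor of translation that mTOR switches off, was 10.08, 10.91, 10.67, 9.59 and 9.98 in STZ,SD and 9.32 to 9.56 (median 9.46) in Con,SD, a rise of 0.80 ± 0.17 in which array 4 cleared the highest control by little. The regulatory subunit Pik3r1 was high on STZ,SD arrays 1 to 3 (10.34, 11.31 and 11.03) and within the control range on arrays 4 and 5 (9.48 and 9.75, Con,SD 9.32 to 9.77). Its difference of 0.83 ± 0.24 (adjusted p = 0.0193) fell to 0.31 and was not called without STZ,SD arrays 2 and 3.

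**Figure D1:**
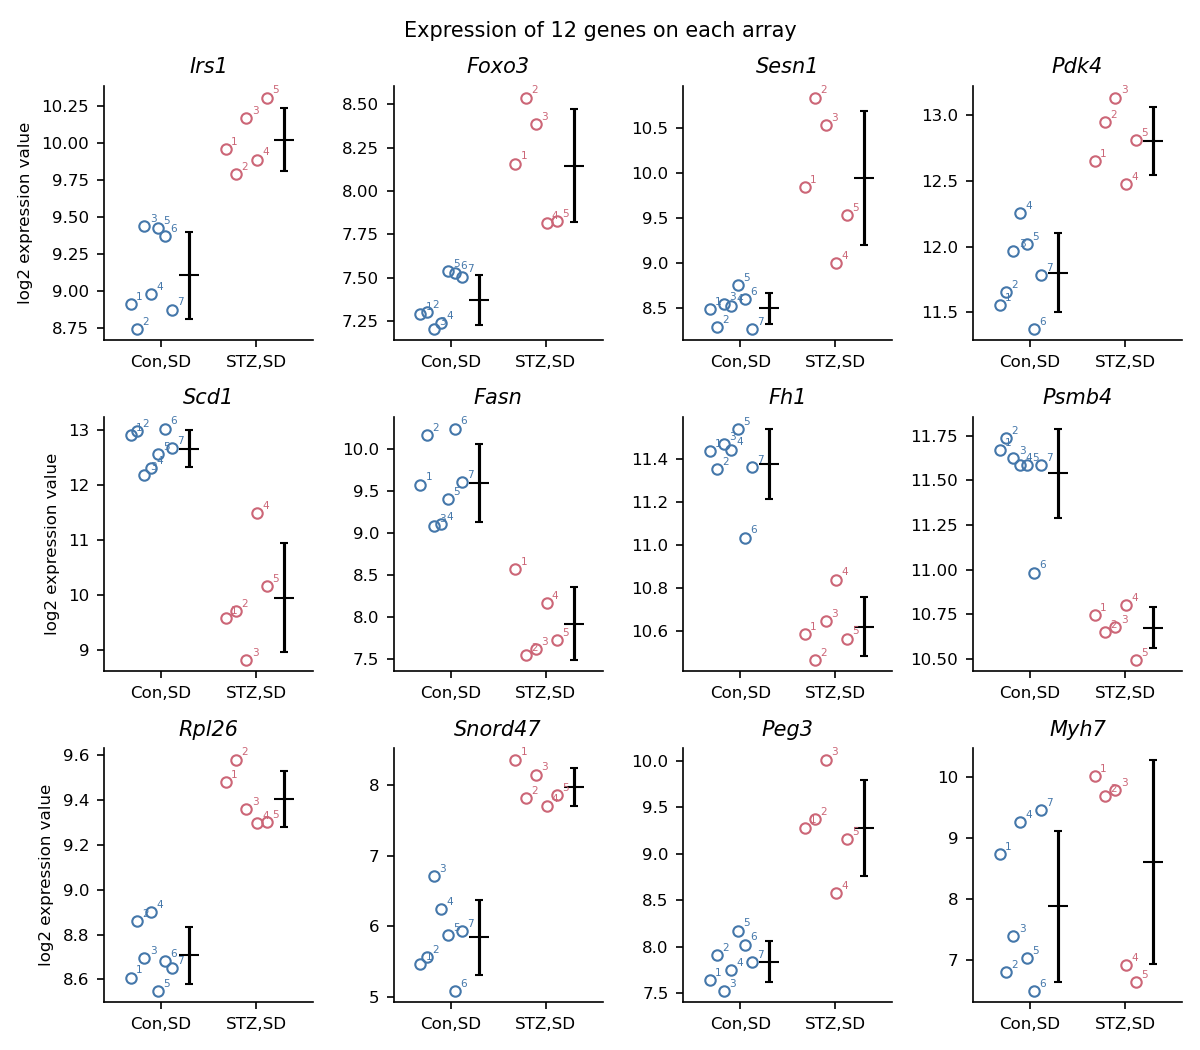
Log2 expression values of 12 genes on each of the 7 Con,SD arrays (blue) and 5 STZ,SD arrays (red), with small digits for the array number and the group mean ± SD in black. For 11 of the genes no STZ,SD array overlaps a control, whereas Myh7, a slow-fibre myosin, ranges from 6.50 to 9.46 in Con,SD and from 6.65 to 10.01 in STZ,SD.

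Most of the measured FoxO factors and known FoxO targets rose. Of 26 measured genes, 17 were called higher and 0 lower, 25 had a positive difference, and the median was 0.40. Foxo3 rose the most of the factors, from 7.21 to 7.54 (median 7.30) in Con,SD to 8.16, 8.54, 8.39, 7.81 and 7.82 in STZ,SD (0.77 ± 0.11, 1.71-fold, limma adjusted p = 0.000155). Foxo1 was 8.69, 9.69, 9.17, 8.63 and 8.68 against 8.12 to 8.41 (0.72 ± 0.14) and Foxo4 rose by 0.33 ± 0.06. For all 3 factors the groups were separate.

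Among the targets, Sesn1, a stress protein that restrains mTOR, had the largest non-overlapping rise. It ran from 8.27 to 8.75 (median 8.52) in Con,SD and was 9.84, 10.84, 10.53, 9.0 and 9.54 in STZ,SD, a 2.74-fold difference (1.45 ± 0.22, adjusted p = 0.00027). Pdk4, the kinase that closes the pyruvate dehydrogenase complex to glucose carbon, was 12.65, 12.95, 13.14, 12.47 and 12.81 against 11.37 to 12.25 (1.01 ± 0.15, 2.01-fold). Cited2, a transcriptional co-regulator, rose by 0.78 ± 0.13 and Fbxo31, part of a ubiquitin ligase, by 0.63 ± 0.11, also with separate groups.

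The 2 classical atrophy ligases were less clear. Trim63 (MuRF1), which tags sarcomere proteins for breakdown, was 10.11, 11.31, 10.48, 10.16 and 10.16 in STZ,SD and 9.57 to 10.09 (median 9.95) in Con,SD. That was a 1.5-fold rise (0.58 ± 0.18, adjusted p = 0.029) in which array 2 stood highest and array 1 cleared the controls by little, and the call was lost without STZ,SD arrays 2 and 3 (0.28). Fbxo32 (atrogin-1) had 0.54 ± 0.23 (adjusted p = 0.12), with 12.43 on STZ,SD array 2 and 11.28 on the highest control. It did not pass the test.

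Several of the largest rises were uneven across the diabetic mice. Depp1, a FoxO target induced by fasting, was 8.12, 10.49, 9.75, 7.19 and 7.97 in STZ,SD and 6.75 to 7.54 in Con,SD, so array 4 lay among the controls and array 2 far above them (1.55 ± 0.44, adjusted p = 0.0203, and 0.61 without arrays 2 and 3, not called). Cebpd, a transcription factor of the acute phase response, was also highest on arrays 2 and 3 and lowest on array 4, with 7.01, 8.99, 8.31, 6.38 and 7.46 against 5.78 to 6.50 (1.41 ± 0.33, adjusted p = 0.0059). Egln3, an oxygen-sensing prolyl hydroxylase, was 9.98, 11.38, 11.53, 9.17 and 9.56 against 8.35 to 9.13 (1.68 ± 0.33, 3.21-fold). Over the 440 genes called at 1.5-fold or more, STZ,SD array 2 lay farthest from the control mean for 202 genes and array 3 for 124, whereas array 4 lay nearest to it for 251. The median distance from the control mean over these genes was 0.68, 0.99, 0.97, 0.46 and 0.66 on arrays 1 to 5. These values describe how the mice varied, since the genes were chosen on the same arrays.

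Glucocorticoid-responsive genes also stood highest on STZ,SD arrays 2 and 3. Of 20 measured members, 13 were called higher and 0 lower, with a median of 0.59. Some genes, among them Sesn1, Klf15 and Ddit4, count in several lists of this report, so the list counts are not separate results. Klf15, a regulator of amino acid and lipid breakdown in muscle, was 8.97, 9.92, 9.33, 8.64 and 8.59 against 8.07 to 8.32 in Con,SD (0.88 ± 0.18), with no overlap. The mean level of the list was 9.22, 9.99, 9.64, 8.88 and 9.17 on STZ,SD arrays 1 to 5 and ran from 8.73 to 9.22 in Con,SD, so the groups overlapped. Without STZ,SD arrays 2 and 3, 5 of the 20 were called higher, without either alone 7, and without Con,SD arrays 1, 3 and 4 together 8. Ddit4, an mTOR inhibitor induced by glucocorticoids, had 0.88 ± 0.30 (adjusted p = 0.0503), and its call was lost without array 2 (0.59) or array 3 (0.79).

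Promoters were searched for 12 motifs on both strands, and the FoxO core motif GTAAACA is described because the FoxO genes rose. The windows ran from 250 bases before to 50 bases after a gene's start (RefSeq, GRCm38.p6), and overlaps between motifs were not removed. The motif was in 14 of 144 windows (9.72%) of genes called higher at 1.5-fold or more. In genes called lower at 1.5-fold or more it was in 9 of 278 windows (3.24%), in all genes tested in 575 of 19116 (3.01%) and in all promoter windows of the table in 1199 of 32851 (3.65%). In the windows of all genes called higher, whatever the fold, it was in 2.76%. Of the 182 genes called higher at 1.5-fold or more only 124 had a window, some of them several. By gene the motif was in 14 of these 124 (11.3%), beside 3.54% of all tested genes with a window. The other 11 motifs were the glucocorticoid receptor site AGAACA, the E-box CACGTG, CRE TGACGTCA, NRF1 GCGCATGC, ETS CCGGAAG, MEF2 TATTTAT, the PPAR site AGGTCA, Sp1 GGGCGGG, the TATA box TATAAA, SREBP TCACNCCA and STAT5 TTCCNGGAA. Among them the E-box was in 14.6% of the windows of genes called higher at 1.5-fold or more and in 8.26% of those of all genes tested, and the Sp1 motif in 48.6% and 36.2%. A match is a description and does not show that a factor binds there. The stretches of 50 bases around 4 of these 14 matches are shown as examples of where the motif lies, and other genes with a match rose more than some of them. The motif, or its reverse complement, is in capitals.

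Pim1, chr17:29492993-29493042, + strand: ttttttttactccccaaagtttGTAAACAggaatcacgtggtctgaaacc
Bcl2l11, chr2:128125789-128125838, + strand: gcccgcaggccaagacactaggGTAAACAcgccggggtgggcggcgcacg
Ccni, chr5:93206496-93206545, - strand: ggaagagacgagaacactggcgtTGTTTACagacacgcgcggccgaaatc
Sidt2, chr9:45955250-45955299, - strand: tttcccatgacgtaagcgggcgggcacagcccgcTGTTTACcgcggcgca

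These genes were named for their promoters after their values were seen. Pim1, a survival kinase, was 7.94, 9.23, 8.66, 8.58 and 8.58 in STZ,SD and 7.31 to 8.04 in Con,SD (0.81 ± 0.16), so array 1 overlapped. Bcl2l11 encodes Bim, a pro-death protein under FoxO control, and was 7.45, 7.40, 7.58, 7.12 and 7.01 against 6.43 to 6.85 (0.68 ± 0.10). Ccni, an atypical cyclin, rose by 0.77 ± 0.13 and Sidt2, a lysosomal membrane protein, by 0.63 ± 0.08, both with separate groups. The match of Sesn1 lay after its start and is not printed.

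The IGF system changed on several levels. Igf1r, the IGF-1 receptor, ran from 7.52 to 7.99 (median 7.78) in Con,SD and was 8.72, 9.11, 9.33, 8.23 and 8.63 in STZ,SD (1.05 ± 0.15, 2.07-fold, adjusted p = 0.000161). Of the binding proteins that hold IGFs outside cells, Igfbp3 rose by 1.28 ± 0.21 (9.36, 10.22, 9.92, 8.82 and 8.93 against 8.02 to 8.25) and Igfbp6 fell by 0.71 ± 0.14, both without overlap. Igfbp5 was low on STZ,SD arrays 2 and 3 (9.34 and 9.36) and near the controls on the other 3 (11.08, 11.44 and 11.38, Con,SD 11.21 to 11.69). Its difference was -0.96 ± 0.32, and the call was lost without array 2 (-0.67) or array 3 (-0.67).

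Imprinted growth genes, which are read from 1 parental copy and are most active before birth, were also called higher more often than lower. Of 14 measured, 8 were called higher and 1 lower, and in 7 every STZ,SD array lay above every control, with a median of 0.47. The 8 were also 8 without STZ,SD arrays 2 and 3. Peg3, a zinc finger protein, was 9.28, 9.37, 10.02, 8.58 and 9.16 against 7.53 to 8.18 (1.44 ± 0.21, 2.72-fold, adjusted p = 0.000151). Its neighbour Zim1 rose by 0.90 ± 0.14 and the RNA gene Meg3 by 0.64 ± 0.10. Igf2, the fetal growth factor, was 9.93 on STZ,SD array 1 and 8.05 to 8.74 on the other 4, against 7.62 to 7.91 in Con,SD (0.92 ± 0.21).

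Genes of glucose uptake went both ways. Tbc1d4 (AS160), the Akt target that holds glucose transporters inside the cell until it is phosphorylated, was 9.73, 9.79, 10.11, 8.70 and 9.36 in STZ,SD and 7.95 to 8.50 (median 8.16) in Con,SD, 2.57-fold higher (1.36 ± 0.20, adjusted p = 0.000196). The transporter gene Slc2a4 (GLUT4) was 11.04, 11.35, 11.13, 11.26 and 10.87 against 11.34 to 11.60, a fall of 1.29-fold in which array 2 touched the control range (-0.36 ± 0.08, adjusted p = 0.00291). Hk2, the hexokinase that traps glucose, fell by 0.42 ± 0.10 with no overlap. Of 21 measured glycolysis genes 9 were called lower and 1, Pfkfb3, higher, and the median was -0.15. The falls were small, among them Pfkm, the muscle phosphofructokinase, with -0.32 ± 0.06 and Ldha, lactate dehydrogenase, with -0.28 ± 0.05. Oga, the enzyme that removes a sugar tag from proteins, rose by 0.51 ± 0.06 (adjusted p = 5.57e-05) and Ogt, the enzyme that adds it, by 0.31 ± 0.07.

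Genes of fatty acid synthesis fell, among them the gene with the largest fall of all those tested. This was Scd1, the desaturase that makes monounsaturated fatty acids, which ran from 12.19 to 13.03 (median 12.67) in Con,SD and was 9.58, 9.71, 8.82, 11.49 and 10.17 in STZ,SD, 6.55-fold lower (-2.71 ± 0.31, adjusted p = 1.9e-05). The diabetic mice spread more widely than the controls (SD 0.99 and 0.33), with array 4 nearest to them. Fasn, the fatty acid synthase, was 8.57, 7.55, 7.62, 8.17 and 7.73 against 9.09 to 10.24 (-1.67 ± 0.25), and Scd2 was 8.71, 8.30, 8.05, 9.38 and 8.69 against 9.65 to 10.29 (-1.35 ± 0.20). Neither overlapped with the controls.

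Of 27 measured genes of the pathway 9 were called lower and 2 higher, with a median of -0.24. The list level was highest on Con,SD array 1 (8.96), and 9 were also lower without that array. Acly, which supplies acetyl-CoA, fell by 0.60 ± 0.13 and Agpat2, an enzyme of triglyceride assembly, by 1.14 ± 0.25. Elovl6, the elongase for saturated chains, fell by 0.93 ± 0.20. Lep, the leptin gene of fat cells, was 5.43, 5.36, 5.52, 6.34 and 6.41 against 6.58 to 8.91 (-1.51 ± 0.32). White adipocyte marker levels ran from 9.12 to 10.4 in Con,SD and from 8.59 to 9.51 in STZ,SD, and 1 of its 9 measured markers, Lep itself, was called. When that level was added to the fit, a setting added later, the values were -2.61 for Scd1 and -1.47 for Fasn, both still called. Lep is part of that level, so no such value is given for it.

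Some genes of fat use rose, but not the list as a whole. Of 33 measured genes of fatty acid uptake and beta-oxidation 9 were called higher and 5 lower, and 3 were lower without STZ,SD array 1, 2 or 5. The median was -0.01, and 15 of the 33 had a positive difference. The genes of uptake and oxidation named next are all from those that rose. The uptake gene Slc27a1 was 10.44, 10.51, 10.91, 9.84 and 10.13 against 8.90 to 9.56 in Con,SD (1.11 ± 0.18, 2.16-fold, adjusted p = 0.00038). Mlycd, which removes the malonyl-CoA that blocks fatty acid entry into mitochondria, rose by 0.66 ± 0.11 and Acot2, a mitochondrial thioesterase, by 1.01 ± 0.22. Cd36, the main fatty acid transporter of the fibre membrane, rose by 0.52 ± 0.12 and Acadl, the long-chain acyl-CoA dehydrogenase, by 0.73 ± 0.16, both with separate groups. At the lipid droplet, Pnpla2, the first triglyceride lipase, rose by 0.76 ± 0.16 and its partner Plin5 by 0.51 ± 0.12, while the droplet coat gene Plin2 fell by 0.70 ± 0.12. All of these kept their call under each of the 27 alternatives run for them.

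**Figure D2:**
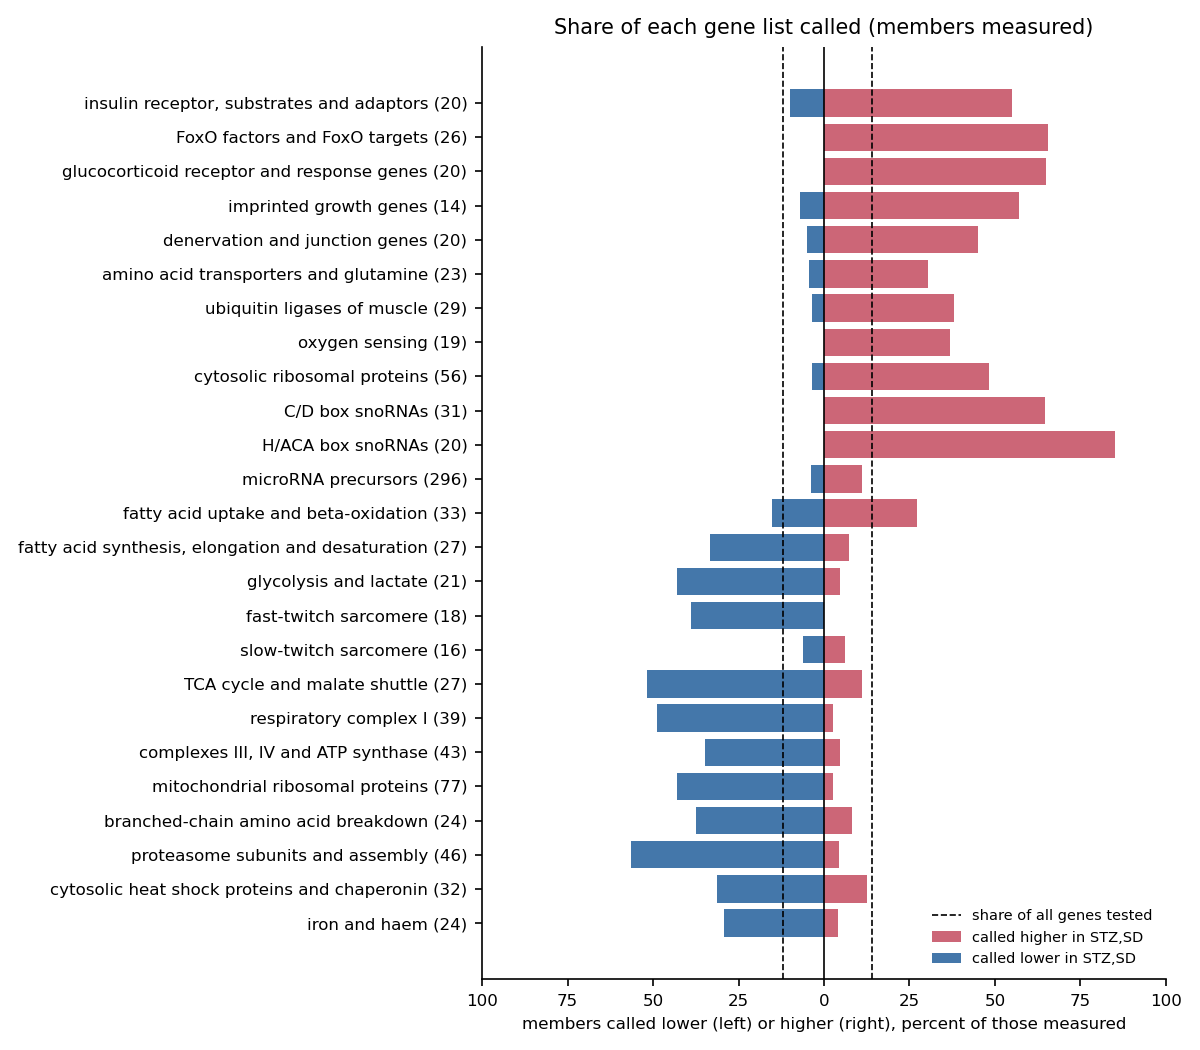
Share of the measured members (number in brackets) of 25 gene lists called lower (blue, left) or higher (red, right) in STZ,SD, in percent. Dashed lines mark the shares among all genes tested, 11.9% lower and 13.9% higher. FoxO, glucocorticoid, ribosomal protein and snoRNA lists extend to the right, and TCA cycle, respiratory chain, mitochondrial ribosome and proteasome lists to the left.

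Many mitochondrial genes fell, by small amounts. Of 27 measured TCA cycle and malate shuttle genes 14 were called lower and 3 higher (median -0.22). Of 39 complex I genes 19 were lower and 1 higher (-0.20), and of 43 genes of complexes III and IV and ATP synthase 15 were lower and 2 higher (-0.11). Of 77 mitochondrial ribosomal proteins, which translate the genes of mitochondrial DNA, 33 were lower and 2 higher (-0.17). The mean level of the TCA list was 10.88, 10.80, 10.89, 10.85 and 10.73 on STZ,SD arrays 1 to 5 and 10.89 to 11.20 in Con,SD, so the groups were separate, by very little at the nearest pair. The level of the mitochondrial ribosomal proteins overlapped, with 8.52 to 8.74 in STZ,SD and 8.71 to 8.88 in Con,SD. That of complex I overlapped too, with 10.19 to 10.46 in STZ,SD and 10.42 to 10.69 in Con,SD. Without STZ,SD arrays 2 and 3 the lower genes numbered 12, 11, 10 and 22 in these 4 lists.

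Fh1, the fumarase, ran from 11.04 to 11.54 (median 11.44) in Con,SD and was 10.59, 10.47, 10.65, 10.84 and 10.56 in STZ,SD, 1.69-fold lower (-0.76 ± 0.09, adjusted p = 2.53e-05). Pdhb, a subunit of pyruvate dehydrogenase, was 8.58, 7.96, 8.37, 8.37 and 8.02 against 8.72 to 9.21 (-0.82 ± 0.11), and Idh3a, a subunit of the cycle's isocitrate dehydrogenase, fell by 0.67 ± 0.09. Idh2, the enzyme that makes mitochondrial NADPH, went the other way on STZ,SD arrays 1 to 3 (11.27, 11.83 and 11.76 against 9.96 to 10.92) and stayed in the control range on arrays 4 and 5 (0.66 ± 0.23, adjusted p = 0.054, not called without array 2 or without array 3).

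The largest fall in these 4 lists was in Ndufaf1, an assembly factor of complex I, with 9.27, 8.59, 8.89, 9.17 and 8.76 in STZ,SD against 9.76 to 10.57 (median 10.51) in Con,SD. It was 2.69-fold lower (-1.43 ± 0.13, limma adjusted p = 3.73e-06). Among the mitochondrial ribosomal proteins, Mrps23 was 9.64, 9.41, 9.45, 9.61 and 9.38 against 9.93 to 10.22 (-0.63 ± 0.07) and Mrpl15 fell by 0.74 ± 0.09. Ckmt2, the creatine kinase of muscle mitochondria, fell by 0.63 ± 0.10 and Hsd17b10, a dehydrogenase of isoleucine breakdown, by 0.78 ± 0.06 (adjusted p = 9.01e-07). Nrf1, a transcription factor of mitochondrial genes, rose by 0.32 ± 0.07. Its motif GCGCATGC was in 8 of 74 promoter windows (10.8%) of the mitochondrial ribosomal proteins and in 4 of 38 (10.5%) of the complex I genes, beside 3.79% of the windows of all genes tested and 2.71% of the whole table. The same motif was in 9.38% of the windows of the TCA list, 7.14% of the proteasome, 5.66% of the cytosolic ribosomal proteins and 0% of the FoxO list. The ETS motif CCGGAAG was in 33.8% of the windows of the mitochondrial ribosomal proteins, 38.1% of those of the proteasome and 35.8% of those of the cytosolic ribosomal proteins. It was in 13.2% of those of complex I, 15.6% of the TCA list and 4.55% of the FoxO list. Beside these stood 12.1% of the windows of all genes tested and 8.86% of the table.

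Con,SD array 6 was the lowest control for many of these genes. Of the genes called lower, it was the lowest control for 8 of 14 in the TCA list, 11 of 19 in complex I, 11 of 15 in complexes III, IV and ATP synthase, 16 of 33 among the mitochondrial ribosomal proteins and 16 of 26 in the proteasome, beside 25.6% of all genes called lower. Without it the calls of lower members were 15, 19, 18, 36 and 26 in these lists. What set this array apart was not tested.

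Amino acid genes also split. Of 24 measured genes of branched-chain amino acid breakdown 9 were called lower and 2 higher, with Acad8, of valine breakdown, at -0.48 ± 0.09. Leaving out either STZ,SD array 5 or array 1 of Con,SD gave 5 higher. Of 23 genes for amino acid transporters and glutamine 7 were higher and 1 lower. Slc43a1, an exporter of large neutral amino acids, ran from 8.40 to 9.10 (median 8.80) in Con,SD and was 9.75, 10.76, 10.21, 9.16 and 9.56 in STZ,SD (1.14 ± 0.20, 2.21-fold, adjusted p = 0.000818). The groups were separate, with array 4 close to the controls, and 2 of the 23 were called higher without STZ,SD arrays 2 and 3.

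The proteasome, the barrel-shaped protease that degrades ubiquitin-tagged proteins, had more genes lower than higher. Of 46 measured subunits and assembly factors 26 were called lower and 2 higher, with a median of -0.17. Psmb4, of the catalytic core, ran from 10.98 to 11.74 (median 11.59) in Con,SD and was 10.75, 10.65, 10.68, 10.80 and 10.49 in STZ,SD (-0.86 ± 0.11, 1.82-fold, adjusted p = 4.63e-05). Psmd2, of the regulatory cap, was 10.74, 10.96, 10.76, 10.95 and 10.78 against 11.24 to 11.78 (-0.72 ± 0.08). The ubiquitin side was mixed: of 29 ligases of muscle 11 were higher and 1 lower, and of 35 conjugating enzymes 2 were higher and 9 lower. Of all genes 11.9% were called lower, and 25.3% in the brightest bin, a share near that of the conjugating enzymes. Without STZ,SD arrays 2 and 3, 16 proteasome genes were lower, 6 ligases higher, and of the conjugating enzymes 3 were higher and 2 lower. Without array 2 alone 5 conjugating enzymes were lower, and leaving out either STZ,SD array 4 or array 6 of Con,SD gave 4 lower ligases. Ube4b, which lengthens ubiquitin chains, rose by 0.48 ± 0.06 and Huwe1, a large ligase, by 0.32 ± 0.05, whereas Rbx1, the common subunit of cullin ligases and the lower one among the 29, fell by 0.65 ± 0.09.

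**Figure D3:**
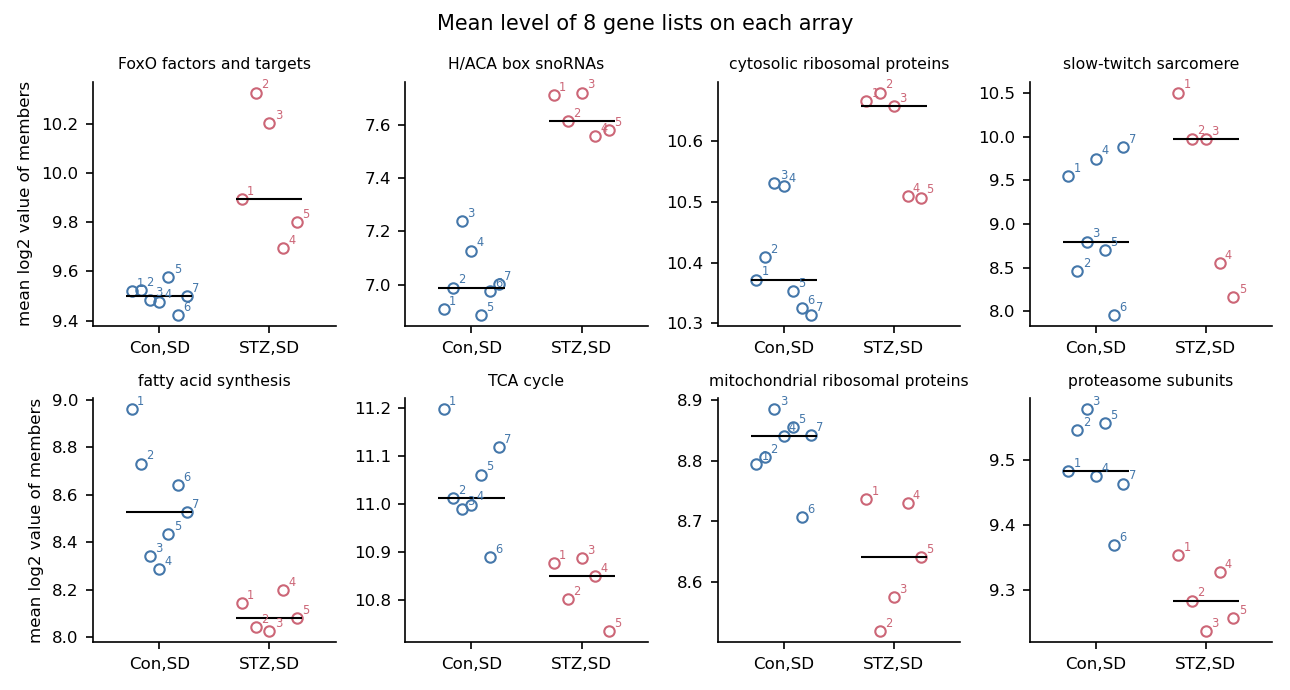
Mean log2 value of the measured members of 8 gene lists on each Con,SD (blue) and STZ,SD (red) array, with array numbers and the group median as a line. FoxO, H/ACA snoRNA, fatty acid synthesis, TCA and proteasome levels do not overlap between groups, and slow-twitch levels split within each group.

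Ribosomal proteins of the cytosol were called higher more often than lower. Of 56 measured cytosolic ribosomal proteins 27 were called higher and 2 lower, with a median of 0.17, and 18 were higher without STZ,SD arrays 2 and 3. Rpl26 was 9.48, 9.58, 9.36, 9.30 and 9.30 in STZ,SD against 8.55 to 8.90 in Con,SD (0.70 ± 0.07, 1.62-fold, adjusted p = 7.8e-06), and Rps28 rose by 0.72 ± 0.09. The mean level of the list was 10.67, 10.68, 10.66, 10.51 and 10.51 on STZ,SD arrays 1 to 5. In Con,SD it was 10.53 on arrays 3 and 4 and 10.31 to 10.41 on the other 5, so it overlapped. Ribosomal protein genes have many near-identical pseudogenes, and short array probes may read some of them. Of 61 translation factors 10 were called higher (6 without STZ,SD arrays 2 and 3) and 15 lower. Eif4e, which binds the cap of messenger RNAs, fell by 0.56 ± 0.08 (-0.23 as the mean of its 3 probe sets) and Eif5a by 0.60 ± 0.07, both without overlap. Sars, the synthetase that loads serine onto its transfer RNAs, fell by 0.76 ± 0.09.

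The small nucleolar RNAs guide the chemical modification of ribosomal RNA, and they had the highest median difference of the gene types with at least 10 measured members. By the reference's gene types, 37 of 53 snoRNAs were called higher and 0 lower, with a median of 0.48. Rises were not particular to snoRNAs. Among smaller types, 2 of 2 Y RNAs (median 1.07), 2 of 3 guide RNAs (0.54) and 5 of 7 snRNAs (0.26) were called higher. For RNase P RNAs it was 1 of 3 (0.12), and for the type misc_RNA 1 of 33 (0.001). Of 31 C/D box snoRNAs, which guide methylation, 20 were higher (median 0.48), and of 20 H/ACA box snoRNAs, which guide pseudouridylation, 17 were higher (median 0.60). Snord47 ran from 5.09 to 6.72 (median 5.88) in Con,SD and was 8.36, 7.82, 8.15, 7.71 and 7.85 in STZ,SD, 4.40-fold higher (2.14 ± 0.24, adjusted p = 1.76e-05). Snora33 was 7.78, 7.37, 7.75, 7.65 and 7.69 against 6.12 to 6.64 (1.33 ± 0.10, adjusted p = 3.08e-07). On array 4 Snora33 lay among the other diabetic arrays and Snord47 just below them. Snora74a rose by 1.62 ± 0.15, Snord33 by 1.67 ± 0.15 and Snord49b by 1.44 ± 0.16, each without overlap. n-R5s136, a 5S ribosomal RNA copy, rose by 1.59 ± 0.11.

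Most snoRNAs are cut out of introns of other genes. Within the span of exactly 1 other measured gene lay 31 of the snoRNAs, in 27 such genes, 10 of which were called higher, 1 lower and 16 not. Their median difference was 0.09, beside 0.48 for the snoRNAs they hold. In 24 of the 31 cases the snoRNA's difference exceeded that of the gene around it. Of the 20 called snoRNAs among the 31, 12 lay in a gene that was not called. Snora3 rose by 0.98 ± 0.09 within Rpl27a, which had -0.07 ± 0.08 (adjusted p = 0.556). Snord47 lies in Gas5, which had -0.33 ± 0.16 (adjusted p = 0.166) and 0.07 as the mean of its 4 probe sets. Under some alternatives Gas5 was called lower (down to -0.51). Snora62 rose by 0.84 ± 0.08 and its gene Rpsa by 0.36 ± 0.05 (0.16 as the mean of its 5 probe sets). Spans were compared without regard to strand.

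**Figure D4:**
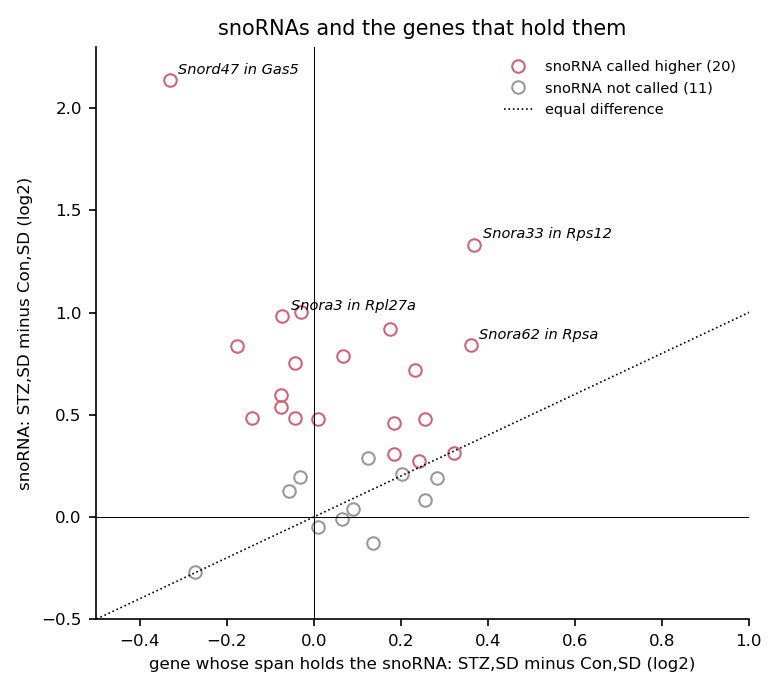
Log2 difference of 31 snoRNAs (vertical) against that of the measured gene whose span holds each (horizontal), red where the snoRNA was called higher (20) and grey where it was not (11). The dotted line marks equal differences. Snord47 (2.14) in Gas5 (-0.33) lies farthest above it, and 24 of the 31 points lie above the line.

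Dim genes were called less often than bright ones, and the share of microRNA precursors is to be read with that. In the 3 dimmest of 6 bins of all genes by level, 0.903%, 3.58% and 9.12% were called higher and 13.3%, 6.14% and 4.24% lower. Precursors were not compared with other genes of their level. Of 296 precursors measured 33 were called higher and 11 lower, together 14.9%, beside 25.8% of all genes. Without STZ,SD arrays 2 and 3, 16 were higher, without array 3 alone 7 were lower, and without Con,SD arrays 1, 3 and 4 together 21 were higher. Of these, 270 were matched to mature sequences in RefSeq. Each of the 3 measured precursors whose 5p arm has the seed ACCCGUA was called higher. Their mature 5p sequences are printed (RefSeq, GRCm38.p6) with the seed, bases 2 to 8, which pairs with target RNAs, in capitals.

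mmu-miR-99a-5p, chr16:77598940-77598961: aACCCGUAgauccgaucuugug
mmu-miR-100-5p, chr9:41531437-41531458: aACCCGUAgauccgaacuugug
mmu-miR-99b-5p, chr17:17830194-17830215: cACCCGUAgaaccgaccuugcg

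Mir99a was 6.18, 5.79, 6.03, 5.81 and 5.75 in STZ,SD and 5.28 to 5.67 in Con,SD, without overlap (0.44 ± 0.10, adjusted p = 0.00501). Mir100 was 4.93, 4.65, 4.67, 4.72 and 4.72 against 4.24 to 4.84 (0.28 ± 0.09), with the call lost under a replicate block (0.25). Mir99b had 0.25 ± 0.10 (adjusted p = 0.0819), and its call was lost under 15 of 27 alternatives. The long RNAs that hold the first 2 rose too, Mir100hg by 0.32 ± 0.08 and Mir99ahg by 0.32 ± 0.08, the latter not called as the mean of its 4 probe sets (0.08). Of 9 measured let-7 precursors with the seed GAGGUAG 3 were called higher, by 0.14 to 0.26. Mir122, a microRNA of liver, fell by 0.45 ± 0.08. Hepatocyte marker levels ran from 7.56 to 11.8 in Con,SD and from 8.07 to 8.97 in STZ,SD. The difference of Mir122 was -0.48 with that level in the fit and -0.50 without Con,SD array 1, which had the highest hepatocyte level and was the lowest control for Mir122, and it was called in both. The array measures precursors with few probes, so these values need not follow the mature forms.

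Genes of slow fibres split within the groups. Myh7, the slow myosin heavy chain, was 10.01, 9.70 and 9.79 on STZ,SD arrays 1 to 3, but 6.93 and 6.65 on arrays 4 and 5. The controls ran from 6.50 to 9.46 with a median of 7.40, with an SD of 1.23 beside 1.67 in STZ,SD (0.73 ± 0.66, adjusted p = 0.467). The slow genes Myl2 and Tnni1 were likewise high on STZ,SD arrays 1 to 3 and low on arrays 4 and 5. The mean level of 16 slow-twitch genes was 10.50, 9.98, 9.98, 8.55 and 8.16 in STZ,SD and 7.96 to 9.88 in Con,SD, and 1 member was called in each direction. Myoglobin (Mb), the oxygen store and the lower one, fell by 0.75 ± 0.16. When the slow-twitch level was added to the fit, also a later setting, 4685 genes were called, 16 FoxO genes and 9 glucocorticoid genes were higher, and 24 proteasome genes were lower.

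Of 18 fast-twitch genes 7 were called lower and 0 higher. Tmod4, which caps thin filaments, was 12.73, 12.68, 12.68, 12.83 and 12.83 against 12.98 to 13.17 (-0.35 ± 0.05). At the nerve-muscle junction 9 of 20 genes were higher and 1 lower, among them Chrnb1, a subunit of the acetylcholine receptor, with 8.62, 9.04, 9.28, 8.26 and 8.69 against 7.58 to 8.27 (0.80 ± 0.15).

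Ppp1r1a, an inhibitor of protein phosphatase 1, was 10.16, 10.56, 10.73, 9.52 and 10.11 against 8.53 to 9.04 (1.38 ± 0.18, 2.60-fold, adjusted p = 6.72e-05), without overlap. Among regulators of muscle mass, Mss51, a muscle gene that responds to myostatin, ran from 10.69 to 11.24 in Con,SD and was 8.38, 9.31, 8.80, 10.35 and 9.81 in STZ,SD, 3.00-fold lower (-1.58 ± 0.24, adjusted p = 0.000251). Mstn, myostatin itself, had -0.08 ± 0.15 (adjusted p = 0.748), with 9.42 to 10.04 in STZ,SD inside the control range of 9.33 to 10.25. The receptors Acvr2a and Tgfbr1 rose by 0.61 ± 0.09 and 0.52 ± 0.07, without overlap.

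Other large falls were found in genes of varied function. Nrep, first described in regenerating nerve, was 10.27, 8.12, 8.14, 11.32 and 10.85 against 11.46 to 12.16 (-1.98 ± 0.47), with arrays 2 and 3 far below the other 3. Map2k6, a kinase upstream of p38, was also lowest on arrays 2 and 3 and highest on array 4, with 8.55, 6.84, 6.75, 9.0 and 8.54 against 9.08 to 9.72 (-1.46 ± 0.33). Cbr2, a carbonyl reductase, was 8.55, 7.96, 7.75, 10.06 and 9.14 against 10.25 to 10.92 (-1.89 ± 0.33, 3.72-fold lower), and Mettl21c, a lysine methyltransferase of muscle, fell by 1.34 ± 0.31. Cetn2, a centriole protein, fell evenly, with 6.99, 6.57, 6.66, 7.22 and 6.74 against 7.85 to 8.49 (-1.44 ± 0.11, adjusted p = 3.65e-07). Gsta4, which detoxifies products of lipid oxidation, fell by 1.16 ± 0.16 and the peroxiredoxin Prdx1 by 0.78 ± 0.12. Of 32 cytosolic heat shock and chaperonin genes 10 were lower and 4 higher (5 lower without STZ,SD arrays 2 and 3), with Stip1, a co-chaperone, at -0.55 ± 0.09 and the chaperonin subunit Cct4 at -0.42 ± 0.08. Of 24 iron and haem genes 7 were lower and 1 higher, among them Uros, an enzyme of haem synthesis, with -0.59 ± 0.08. In the brightest bin of all genes 25.3% were called lower, and these lists were not compared with genes of their level. Lox, which cross-links collagen, rose by 0.86 ± 0.11, with 8.57, 8.27, 8.43, 8.76 and 8.68 against at most 7.89.

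Markers of other cells moved with the groups in part. Of 15 endothelial markers 9 were called higher and 0 lower, and their mean level was 8.74 to 8.99 in STZ,SD and 8.52 to 8.71 in Con,SD. Satellite cell marker levels were 7.00 to 7.13 in STZ,SD and 6.85 to 6.99 in Con,SD. Of 8 satellite cell markers 2 were called higher and 0 lower. Markers called higher also numbered 3 of 7 for pericytes (levels 9.04 to 9.12 in STZ,SD and 8.86 to 9.09 in Con,SD), 3 of 10 for smooth muscle (8.49 to 8.81 and 8.35 to 8.54) and 2 of 5 for Schwann cells (7.38 to 7.48 and 7.15 to 7.41), with 0 lower. Of all genes, 20.7% were called higher in the bin of levels from 6.62 to 7.55, 26.4% from 7.55 to 8.70 and 22.8% above. The counts for satellite cells and smooth muscle lay near these shares. The part of these cells in the differences above was not tested.

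Gene span and promoter composition, which the arrays did not measure, are given as a description. The median span of a gene from start to end was 27.3 kb for those called higher, 16.5 kb for those called lower and 16.8 kb for those not called. Among genes called at 1.5-fold or more the order was the other way, with 12.3 kb for those higher and 17.6 kb for those lower. Genes of every type entered these medians, also the short snoRNAs, of which 37 were called higher and 0 lower. Medians without them were not computed, so the order need not hold for protein-coding genes. Promoter windows of genes called higher had a median GC content of 63.0%, beside 57.0% for those called lower and 56.7% for the rest. The median level of genes called higher was 7.86 and of those called lower 7.91, beside 6.21 for those not called. Among genes with a mean level above 7.5, in 6 bins of 1138 genes by span, the share called higher went from 21.7% in the shortest bin through 17.9% in the second to 36.0% in the longest, and the share called lower from 23.1% and 25.6% to 9.93%. Genes of 1 span class are not independent of each other, and no test was made.

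**Figure D5:**
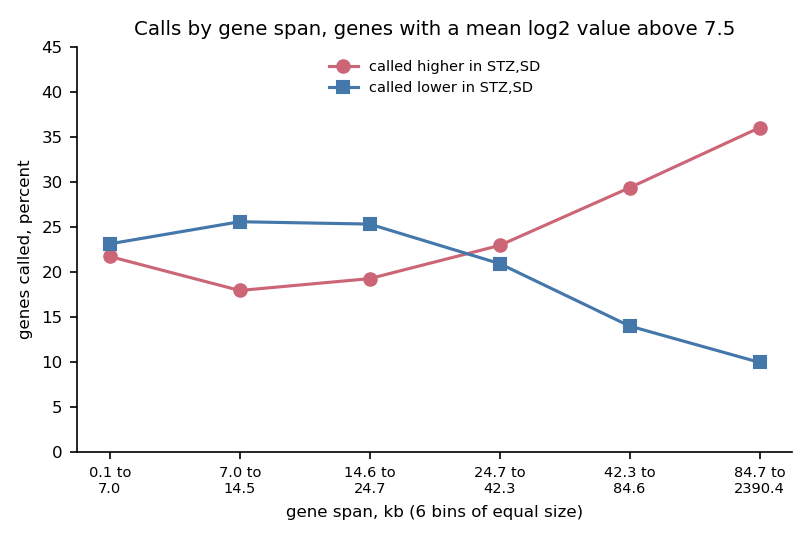
Percent of genes called higher (red circles) or lower (blue squares) in STZ,SD in 6 bins of gene span, among genes with a mean log2 value above 7.5, with 1138 genes per bin. In the longest bin 36.0% were called higher and 9.93% lower.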

How the data were processed

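Total RNA of muscle from 17 mice was hybridized to Affymetrix Mouse Gene 1.0 ST arrays, 1 mouse per array. The deposited log2 values were made by the authors with RMA in Affymetrix Expression Console 1.2, that is background correction, quantile normalization between arrays and a median polish over each probe set. Quantile normalization gives all arrays nearly the same distribution, and it hides a change that most genes share. Scan dates and batches are not given in the sources used here, and the number of arrays limits the precision.

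The table held 35556 probe sets with values from 2.76 to 14.6 and 0 missing. Of these 21789 had 1 gene symbol, 1621 several and 12146 none here. Of the 19938 genes tested, 999 had more than 1 probe set, and each was represented by its brightest on average. limma 3.58.1 in R 4.3.3 was fitted over the 3 groups of 17 arrays, without covariates, and the empirical Bayes test of STZ,SD against Con,SD was adjusted by Benjamini-Hochberg with a threshold of 0.1. The fit was tested on simulated data. The labels call the arrays biological replicates, and n is 7 and 5.

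The comparison, 61 gene lists and 18 cell type marker lists were chosen with earlier results of these data known. Named were the 12 largest rises and 12 largest falls without overlap, in each list the 4 called genes of smallest adjusted p, and a short list of insulin, FoxO, glucose and lipid genes. The text names 124 genes, a choice of these, and 30 outside that rule, chosen after their values were seen: Acadl, Acly, Acot2, Agpat2, Bcl2l11, Ccni, Cd36, Cebpd, Cited2, Depp1, Elovl6, Gas5, Grb10, Idh2, Igf2, Igfbp5, Mir100, Mir100hg, Mir99a, Mir99ahg, Mir99b, Myh7, Myl2, Pfkfb3, Pim1, Rpl27a, Rpsa, Sidt2, Snora62 and Tnni1. Gene spans, types, promoters and microRNAs came from RefSeq tables (GRCm38.p6), in which 21698 of the probe sets with 1 symbol matched. The level of a list on an array is the mean log2 value of its measured members.

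Alternatives were other centring and normalization, all probe sets, probe sets averaged per gene, the 30% dimmest genes left out, array weights, a robust fit with a trend, SAM with 100 permutations, the 12 arrays alone, marker levels as covariates, a replicate block, a threshold of 0.05 and arrays left out. The slow-twitch and adipocyte covariates and leaving out STZ,SD arrays 2 and 3 together were added after seeing the data. Whether replicate numbers pair mice was checked by correlating the deviations of same-numbered arrays from their group means.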

Additional observations from a re-analysis of the deposited data

Results flagged for a closer look

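In 284 groups of 5 or 7 values, over the named genes and the marker levels, 18 held an array far from the others of its group, measured by its gap to the nearest value as a share of the whole range (6.34%). Chance gives about 1 in 20.

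On Con,SD array 6, 8 genes were flagged, all as the lowest control: Acadl at 9.47, Pdhb at 8.72, Fh1 at 11.04, Ndufaf1 at 9.76, Mrpl15 at 9.41, Psmb4 at 10.98, Psmd6 at 10.23 and Prdx3 at 10.52. Most are genes of mitochondria or the proteasome, and for all but Acadl this array lay nearest to the STZ,SD arrays.

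Con,SD array 1 was highest for the testis marker level (8.18), the brown adipocyte marker level (6.56) and Gsta4 (9.60), and lowest for Tmod4 (12.98). Con,SD array 4 was lowest for Cetn2 (7.85) and highest for the imprinted gene Peg10 (6.84). Con,SD array 2 was highest for Akt2 (11.65) and Con,SD array 3 lowest for Ddit4 (6.34). Among the diabetic mice, STZ,SD array 5 was highest for Acly (7.60) and STZ,SD array 1 highest for Mir100 (4.93).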

How the results depend on the processing

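The count of 5142 called genes (2776 higher, 2366 lower, 440 at 1.5-fold or more) was within 1.5 times of its value under most settings. With all 35556 probe sets 8673 were called, 4508 higher, 4165 lower and 1573 at 1.5-fold or more. Without Con,SD arrays 1, 3 and 4 the higher genes numbered 1826. Without STZ,SD arrays 2 and 3, 2796 were called, 1658 higher, 1138 lower and 234 at 1.5-fold or more. Leaving out 1 array gave 3814 to 5430 called, 2150 to 2773 higher, 1664 to 2739 lower and 331 to 574 at 1.5-fold or more. Same-numbered arrays correlated at 0.07, 0.03, -0.04, 0.00 and 0.07 in their deviations, so no pairing by replicate number was seen. Differently numbered arrays were not compared, so this check cannot exclude a weak pairing. A replicate block gave 4598 calls.

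Of the 116 named genes that were called, 106 kept their call under every alternative for genes. The other 10 are given with their values in the report. Akt2 and Fbxo32, not called, passed under 7 and 8 alternatives. Gas5, not called, passed as lower under SAM, a replicate block, the slow-twitch covariate and without Con,SD array 6 (down to -0.508). Tnni1, not called, passed under SAM. Signs turned only in genes that were not called: Gas5 with the mean of its probe sets (0.068), Rpl27a without Con,SD arrays 1, 3 and 4 (0.0338), Myl2 with the slow-twitch covariate (-0.0389) and without STZ,SD arrays 2 and 3 (-0.0528), Myh7 without those arrays (-0.0238), and Mstn with the slow-twitch (0.0232) and adipocyte covariates (0.0153), without STZ,SD arrays 2 and 3 (0.11) and without STZ,SD array 3 (0.0103), whereas leaving out the other arrays 1 at a time gave Mstn values down to -0.165. The cause was not tested. Counts of 5 or fewer members of a list often moved by over 1.5 times when arrays were left out. With 5 and 7 mice, small differences in dim genes cannot be resolved.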
